A study of Mus with 50 samples.

Results

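Fatty acid oxidation and ketogenesis were described through 30 genes, taken from a list of textbook enzymes, carriers and regulators and measured each by the probe set with the highest median among those that carry its symbol alone. They are 30 of the 22180 named genes on the array, and all 30 lay at or above the median level of the named genes, a log2 signal of 3.61. By the compartment of their product, 17 are mitochondrial, 7 are peroxisomal, 2 act in both (Crat and Eci2) and 4 are regulators or other targets of the same nuclear receptor (Ppara, Pdk4, Angptl4 and Fabp1). Crat had 2 such probe sets and each of the other members had 1.

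The liver burns fatty acids in 2 places. Mitochondria take up long-chain fatty acids through the carnitine shuttle and shorten them by repeated rounds of dehydrogenation, hydration, a further dehydrogenation and thiolysis, and in fasting the liver turns much of the product into ketone bodies for other tissues. Peroxisomes start on very long, branched and bile acid side chains and hand shortened chains to the mitochondria. PPAR-alpha, a nuclear receptor activated by fatty acids, is known to induce many enzymes of both compartments in the fasted rodent liver. Among the members, Bdh1 alone stands for the enzymes of ketone bodies.

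RNA of 50 livers was profiled, each from a different female mouse and on an array of its own. All came from a backcross of the C57 and FVB strains and all carried the MMTV-Neu transgene, in which a promoter active in the mammary gland drives the Neu proto-oncogene, and breast cancer is given as their comorbidity. The livers were picked from mice at both extremes of a grade of ageing, but the labels tie no mouse to an extreme and give no age. The 50 livers were therefore treated as 1 group, and every result is a level, a spread or a covariation from mouse to mouse. Mice are called by the animal number of their label, and p-values measure the spread between these animals.

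Array medians lay between 3.27 and 3.34, and precision is limited by how many arrays there are. Livers of animals 64, 84, 87 and 235 stood apart: their median correlation with the others over all genes was 0.794, 0.903, 0.932 and 0.857, against at least 0.944 in the other 46. Albumin (Alb), the main product of hepatocytes, read 13.34, 13.31, 13.45 and 13.45 in them and 13.20 to 13.54 in the other 46. Its highest value was also the highest of any probe set, so a ceiling of the signal may hide differences. Tat read 9.22, 12.75, 12.58 and 10.82 in the 4, and 11.55 to 12.79 in the 46. Tdo2 read 7.39, 11.41, 10.67 and 8.07, and 9.29 to 11.30. Hnf4a read 8.02, 10.45, 9.86 and 8.86, and 9.57 to 10.39. Ttr read 12.22, 11.37, 12.52 and 12.66, and 12.48 to 13.08. The mean level of 8 hepatocyte markers was 9.62, 10.98, 10.99 and 10.55 in these 4 and 10.84 to 11.51 in the others. The mean of 6 macrophage markers was 7.76, 6.52, 8.61 and 10.00, against 6.17 to 8.81. The mean of 3 T cell markers was 3.55, 3.38, 7.89 and 5.31, against 3.32 to 6.22, and was highest of all livers in animal 87. A further 4 livers carried marker levels of other cells or low levels of the members themselves. The mean pancreatic acinar marker level was 11.28 in animal 96, the mean mammary epithelium marker level was 6.98 in animal 161, and the mean B cell marker level was 7.46 in animal 10, each the highest of all livers. Animal 179 had a mean hepatocyte marker level of 10.85. The counts of members that followed Acadm, Ehhadh, Ppara, Cpt1a or Pdk4 are also given over the 46 livers and over the 42 left without these 8, a choice made after the data were seen; other counts are given over the 50 and, for most, the 46. In bulk tissue, fewer cells of a type and less RNA per cell cannot be told apart.

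The same few livers were low, or high, across most of the pathway. Animal 235 was below the median in all 30 genes and among the 5 lowest livers in 26 of them. Animal 64 was among the 5 lowest in 25 and the lowest of all in 12. Animal 179, which did not stand apart over all genes, was among the 5 lowest in 23. Animal 101 was at or above the median in every member, the highest of all livers in 12 and among the 5 highest in 20. Animal 91 was the highest in 7 and among the 5 highest in 20. Animal 91 also had the lowest mean level of the macrophage, stellate and endothelial lists, at 6.17, 6.56 and 6.34, whose medians over all livers were 7.74, 7.17 and 7.99. The part of cell makeup in these differences was not tested.

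**Figure D1:**
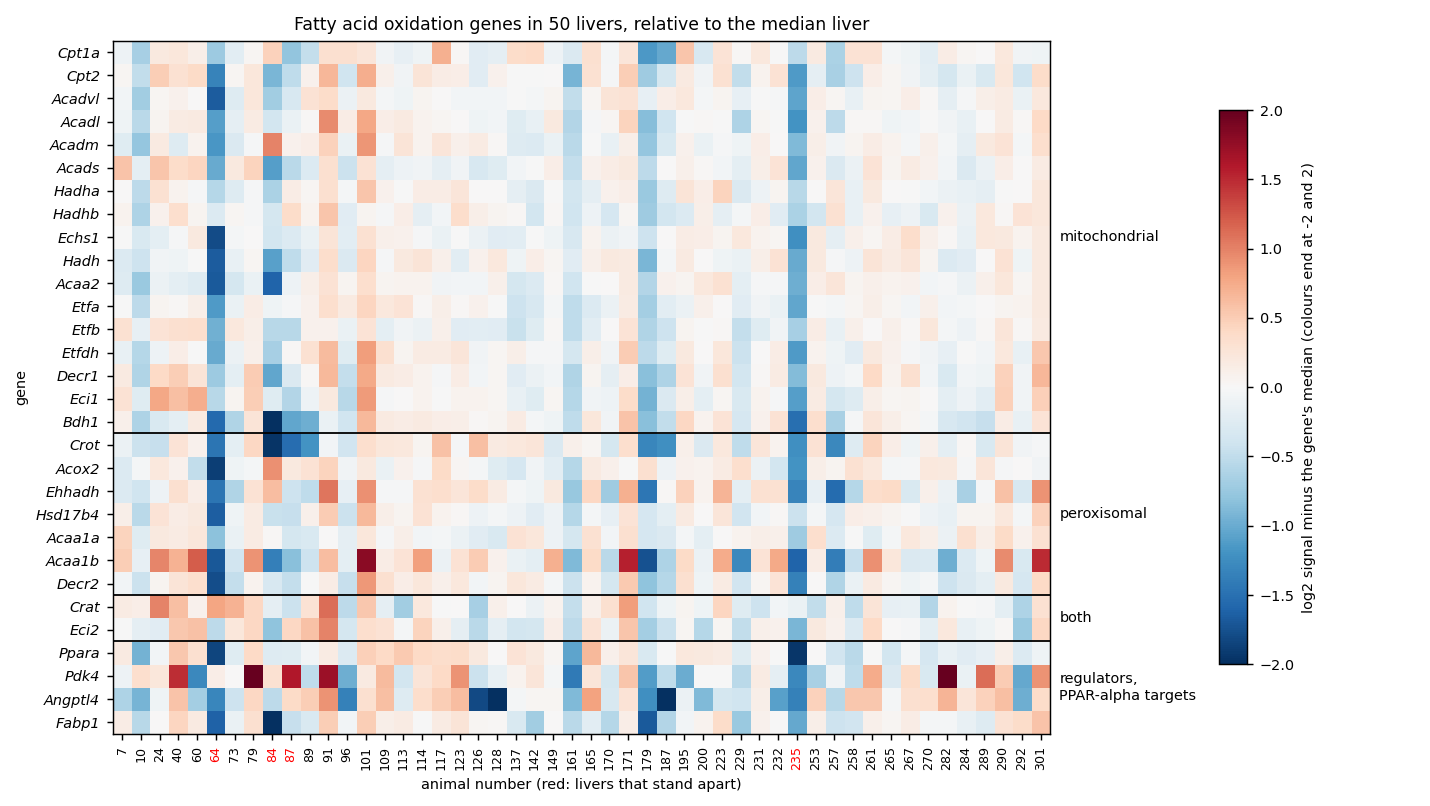
Log2 signal of each of the 30 genes (rows, by compartment) in each of the 50 livers (columns, in order of animal number), minus the median of the gene over all livers. Animals 64, 179 and 235 form blue columns through most rows and animals 91 and 101 form red ones, while animal 84 is red for Acadm and Acox2 and dark blue for Bdh1, Crot, Acaa2 and Fabp1.

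The carnitine shuttle varied moderately at its entry and exit. Cpt1a, the outer-membrane transferase that commits long-chain fatty acids to mitochondrial oxidation, had a lowest value of 8.12 in animal 179, a median of 9.27 and a highest value of 9.98 in animal 117. Cpt2, which reforms acyl-CoA on the inner side, had 6.72 in animal 64, a median of 8.06 and 8.79 in animal 101. Both spread by about the same amount, with SDs of 0.39 and 0.44 (n = 50). Crat, which moves short acyl groups to and from carnitine, ran from 6.24 in animal 113 through a median of 6.95 to 8.07 in animal 91. Its r was 0.143 with Cpt1a and 0.444 with Cpt2 over all livers, and 0.199 and 0.668 over the 46 livers that do not stand apart. Animal 64, the lowest for Cpt2, was among the 5 highest for Crat, at 7.74.

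The acyl-CoA dehydrogenases split the mitochondrial work by chain length. Acadvl, for very long chains, read 7.22 in animal 64, 8.89 at the median and 9.26 in animal 91. Acadl, the long-chain enzyme, read 8.08 in animal 235, 9.28 at the median and 10.23 in animal 91. Acadm, the medium-chain enzyme, read 9.75 in animal 64, 10.92 at the median and 11.91 in animal 84. Animal 84 was thus the highest liver for Acadm while being the lowest for the short-chain enzyme Acads, whose values were 7.03 there, 8.13 at the median and 8.71 in animal 7. The SDs of the 4 genes were 0.35, 0.38, 0.37 and 0.36. Without the livers that stand apart they were 0.19, 0.31, 0.28 and 0.26, so that the spread of Acadvl came down most.

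The enzymes of the later steps differed in how narrow their bulk was. The hydratase Echs1 had its lowest value of 7.61 in animal 64, a median of 9.40 and a highest value of 9.75 in animal 267. For Echs1 80% of livers lay within 0.498, against a median of 0.605 over all genes at or above the median level. The same range was 0.680 for Hadh, 0.626 for Acaa2, 0.629 for Hadha and 0.645 for Hadhb. The dehydrogenase Hadh ran from 8.97 in animal 64 through 10.64 to 11.07 in animal 101. The thiolase Acaa2 ran from 9.09 in animal 64 through 10.76 to 11.09 in animal 101. A normal mixture split it into 5 livers (animals 10, 64, 84, 179 and 235) between 9.09 and 10.18 and 45 between 10.36 and 11.09. These 5 read 10.02, 9.09, 9.15, 10.18 and 9.79 in that order, with a wider step among them than the step to the upper set. The lower set may therefore be a low tail. Hadha and Hadhb, the subunits of the mitochondrial trifunctional protein, had the narrowest spread of the mitochondrial genes over 50 livers, with SDs of 0.27 each. Over the 46 their SDs were 0.24 and 0.25, and Echs1 had the narrowest, 0.17. Hadha had 9.52 in animal 179, a median of 10.26 and 10.81 in animal 101, and Hadhb 3.73 in animal 179, a median of 4.45 and 5.0 in animal 91. Animal 179 was the lowest for both.

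Etfa and Etfb, which form the flavoprotein that takes electrons from the acyl-CoA dehydrogenases, had medians of 9.73 and 8.75, SDs of 0.30 and 0.29, and their lowest values, 8.59 and 7.79, in animal 64. Etfdh, which passes those electrons on to the respiratory chain, ran from 8.87 in animal 235 through 10.00 to 10.84 in animal 101. Decr1 and Eci1, which handle unsaturated chains, ran from 5.58 in animal 84 through 6.61 to 7.37 and from 7.10 in animal 235 through 8.2 to 9.06, both highest in animal 101. Bdh1, which interconverts the ketone bodies acetoacetate and beta-hydroxybutyrate, had the widest spread of the mitochondrial genes over 50 livers. Its signal was 5.62 in animal 84, 7.88 at the median and 8.53 in animal 101, with an SD of 0.56. In the 46 livers its SD was 0.359, and Cpt1a had the widest, 0.363.

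Among the peroxisomal genes Acaa1b spread the most. This thiolase read 6.01 in animal 179, 7.75 at the median and 9.55 in animal 101, and 80% of livers spanned 2.24. Its paralog and near neighbour Acaa1a, of nearly the same sequence, had a median of 5.64, and its SD was 0.27 against 0.85 for Acaa1b. Probes of the pair may take up signal from each other, so their separate values are uncertain. Ehhadh, the bifunctional enzyme that PPAR-alpha is known to induce strongly, read 7.00 in animal 257, 8.54 at the median and 9.62 in animal 91. Hsd17b4, the other bifunctional enzyme, which serves branched chains and bile acid intermediates, ran from 8.22 in animal 64 through 9.88 to 10.53 in animal 101, and its SD was 0.35 against 0.60 for Ehhadh.

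Crot, which readies shortened chains for export to mitochondria, formed separate sets: 8 livers (animals 64, 84, 87, 89, 179, 187, 235 and 257) lay between 8.92 and 9.69 and the other 42 between 10.37 and 11.47. All 4 livers that stand apart were in the lower set, and 4 that do not were there as well. Decr2, the peroxisomal counterpart of Decr1, ran from 8.27 in animal 64 through 10.04 to 10.92 in animal 101. Acox2, the oxidase of branched chains and bile acid intermediates, read 6.99 in animal 64, 8.87 at the median and 9.79 in animal 84. Its SD was 0.40 over all livers and 0.22 over the 46 that do not stand apart. Eci2, an isomerase found in both compartments, ran from 7.50 in animal 235 through 8.41 to 9.40 in animal 91.

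Of the regulators and other targets, Fabp1, Pdk4 and Angptl4 spread widely and Ppara less so, with an SD of 0.51 over all livers and 0.35 over the 46. Ppara, which encodes the receptor itself, read 5.85 in animal 235 and 5.96 in animal 64, against a median of 7.80, a lowest value of 6.75 in animal 161 among the 46 livers and a highest of 8.44 in animal 165. Pdk4, a kinase that turns off pyruvate oxidation in fasting, ran from 5.10 in animal 161 through 6.52 to 9.04 in animal 282. Angptl4, a secreted inhibitor of lipoprotein lipase, ran from 5.48 in animal 187 through 8.32 to 9.22 in animal 91. The spread of Pdk4 and Angptl4 was nearly the same without the livers that stand apart, with SDs of 0.85 and 0.83 over all livers and 0.83 and 0.82 over the 46. For Fabp1, the fatty acid carrier of the liver cytosol, it was not: this gene read 5.15 in animal 84, 9.94 in the next lowest liver (animal 179), 11.62 at the median and 12.18 in animal 301, and its SD was 1.01 over all livers and 0.40 over the 46.

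By compartment, the median SD was 0.37 for the 17 mitochondrial genes, 0.45 for the 7 peroxisomal genes and 0.84 for the 4 regulators and other targets, and over all members it was 0.40, against 0.28 over the 11090 genes at or above the median level. Over the 46 the same medians were 0.26, 0.33, 0.61 and 0.32, against 0.23. Fabp1, Acaa1b, Pdk4 and Angptl4 lay at the 99.1, 98.0, 98.0 and 97.8 percentiles of the SD among all these genes. Hadha, Hadhb and Acaa1a lay near the middle, at 45.5, 45.4 and 45.2.

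Nearly every pair of members varied in the same direction. Of the 435 pairs 430 had a positive Pearson r, with a mean of 0.550, and the mean was 0.490 over the 46 livers and 0.362 over the 42. The mean r was 0.652 for the 136 pairs within mitochondria, 0.592 for the 21 pairs within peroxisomes and 0.611 for the 119 pairs across the 2 compartments. Mean r across compartments was thus close to mean r within them. Over the 46 they were 0.570, 0.432 and 0.489. Acox2 lowered the peroxisomal values: with it left out, the within-peroxisome mean was 0.691 over all livers and 0.620 over the 46, and the mean across compartments 0.646 and 0.550. These means describe members that share the same arrays, and no test was made on them.

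**Figure D2:**
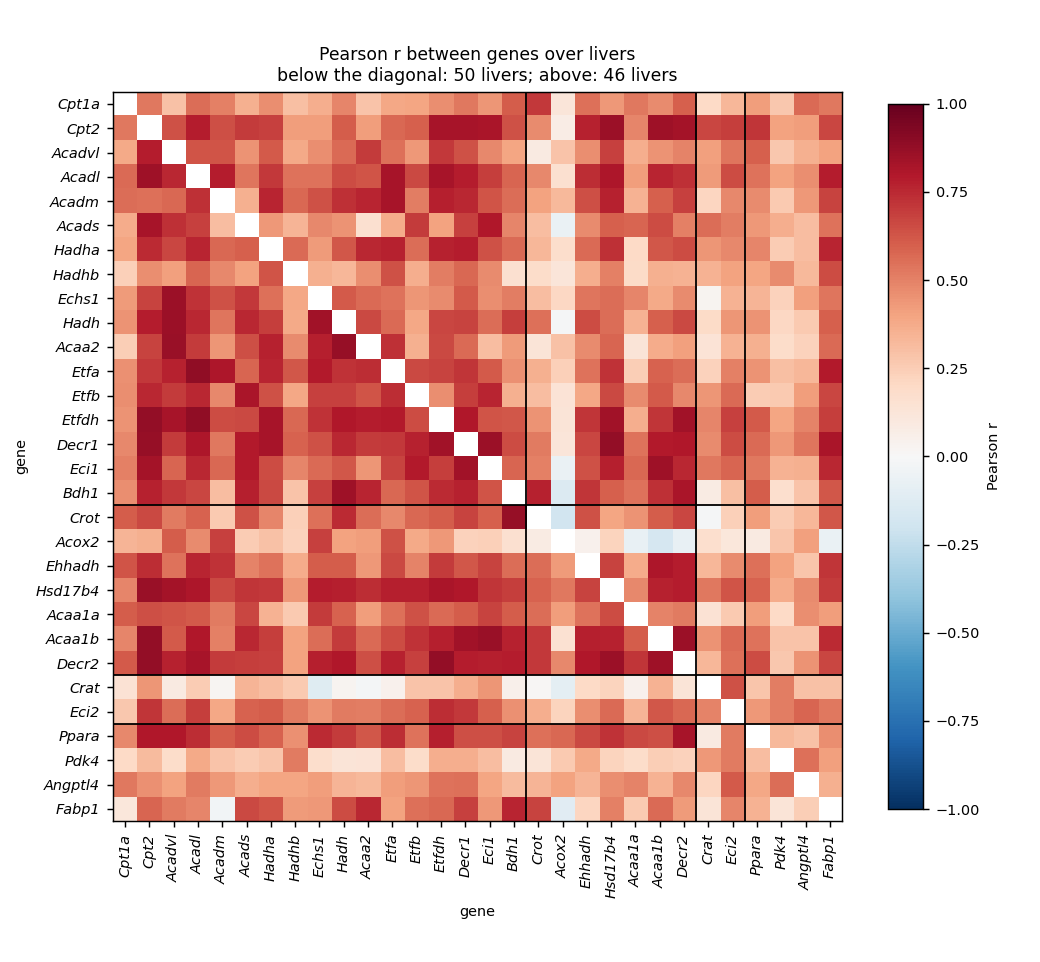
Pearson r between each pair of the 30 genes, over 50 livers below the diagonal and over the 46 livers that do not stand apart above it, with black lines between mitochondrial, peroxisomal, shared and regulatory genes. Most cells are red in both triangles, the mitochondrial and peroxisomal blocks run into each other, and the row and column of Acox2 turn pale or blue above the diagonal.

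To test mitochondrial covariation, every one of the 11089 other genes was fitted on Acadm with limma, with slopes in log2 signal per SD of Acadm and p-values adjusted over all genes (Benjamini-Hochberg, threshold 0.05). Of all genes, 15.8% had a positive slope past the threshold, and 14 of the 16 other mitochondrial members did. Etfa rose with Acadm by 0.24 (SE 0.03), Acadl by 0.28 (SE 0.04) and Etfdh by 0.23 (SE 0.04). Acads and Bdh1 did not pass, with slopes of 0.11 (adjusted p = 0.0771) and 0.17 (adjusted p = 0.0725). In the 46 livers 15 of 16 passed, now with Bdh1, against 10.9% of genes, and in the 42 livers 9 of 16, against 6.84%.

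The peroxisomal genes followed Acadm as well. All peroxisomal members but Crot, 6 of 7, rose with Acadm over 50 livers, and 5 of 7 did over the 46, Crot among them. Over 50 livers the slopes were 0.43 for Ehhadh (SE 0.06), 0.43 for Acaa1b (SE 0.10) and 0.31 for Decr2 (SE 0.05). Crot had a slope of 0.15 (adjusted p = 0.143). Over the 46 its slope was 0.18 (adjusted p = 0.0278), while Acaa1a and Acox2 did not pass (adjusted p = 0.0799 and 0.11). Slopes and follower counts of Crot, here and below, pool its separate sets of livers, and the part of the split in them was not tested. Over all compartments 23 of the 29 other members passed, none with a negative slope, 24 passed in the 46 livers and 14 in the 42. Of the markers, 3 of 8 hepatocyte genes rose with Acadm, and 3 of 6 macrophage genes, 2 of 6 stellate genes, 1 of 2 cholangiocyte genes, 1 of 2 B cell genes and the 1 neutrophil gene fitted fell with it. Over the 46, 1 hepatocyte gene rose, and 1 macrophage, 1 stellate, 2 cholangiocyte and 1 neutrophil gene fell. The share of all genes that fell with Acadm is not given here, so the falling markers cannot be set against it. The part of the markers in the covariation was not tested.

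Fitted on Ehhadh, the peroxisomal members moved together and the mitochondrial ones moved with them. All 6 other peroxisomal genes and all 17 mitochondrial genes rose with Ehhadh, against 14.8% of all genes. Acaa1b rose the most, by 0.66 (SE 0.07) per SD of Ehhadh, Decr2 rose by 0.36 (SE 0.04), and Cpt2 by 0.33 (SE 0.04). Crot, pooled over its separate sets, rose by 0.34 (SE 0.07). Of all 29 others 27 passed, and the slopes of Crat and Fabp1, 0.09 (adjusted p = 0.28) and 0.22 (adjusted p = 0.239), did not. Over the 46 livers 23 passed, against 7.24% of genes, among them 15 mitochondrial and 4 peroxisomal ones. In the 42 livers 14 passed, against 3.72%, among them 8 mitochondrial and 4 peroxisomal ones: Crot, Acaa1b, Hsd17b4 and Decr2. Of the markers 3 hepatocyte genes rose with Ehhadh, and 2 macrophage, 2 stellate, 1 endothelial and 1 neutrophil gene fell. Over the 46, 1 stellate and 1 cholangiocyte gene fell and no marker rose by limma. Here too the share of all genes that fell is not given for comparison.

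Acadm and Ehhadh themselves were correlated. Their Pearson r was 0.724 and their Spearman rho 0.652, each with a two-sided permutation p of 1e-05, the smallest that 100000 permutations can give, and the adjusted p of the limma fit was 3.28e-07. With the 2 mice at the largest distance from the Acadm median left out r was 0.685, and in the 46 livers 0.648. Within 4 stretches of animal numbers, 7 to 79, 84 to 128, 137 to 235 and 253 to 301, with 8, 13, 16 and 13 livers, r was 0.810, 0.682, 0.907 and 0.781.

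**Figure D3:**
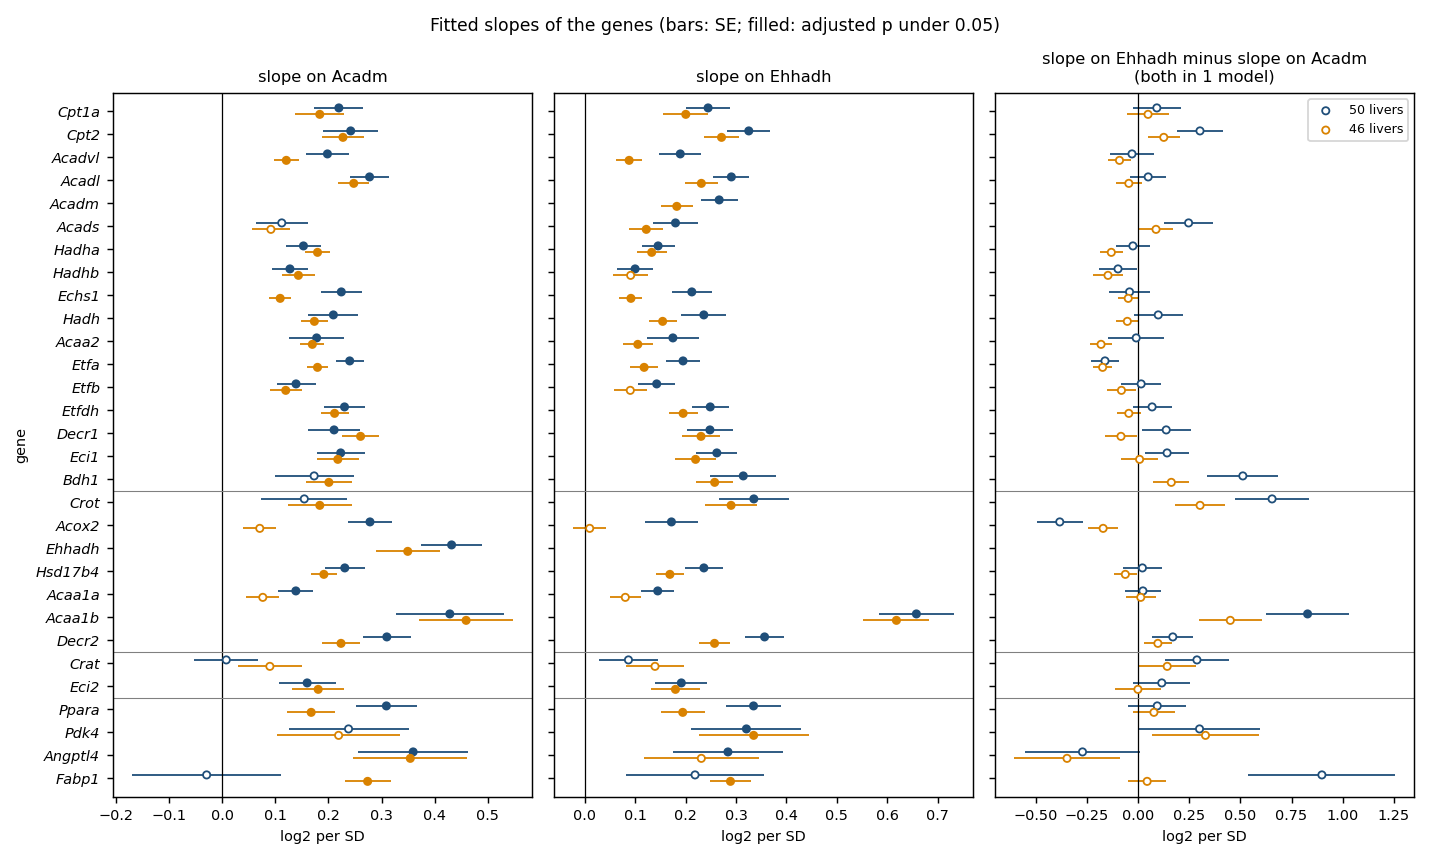
Fitted slopes (points, with SE as bars) of each member on Acadm, on Ehhadh, and the difference of both slopes from 1 model, in log2 signal per SD of the gene fitted on, over 50 livers (blue) and 46 livers (orange), with adjusted p under 0.05 filled. Nearly all points lie right of 0 in the left and middle panels, and the right panel has 1 filled point, Acaa1b over 50 livers.

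Whether a member followed the peroxisomal more than the mitochondrial gene was tested with both in 1 model. Over 50 livers 1 of 28 members had a difference past the threshold, Acaa1b, whose slope on Ehhadh exceeded its slope on Acadm by 0.83 (SE 0.20, adjusted p = 0.0362). In all, 0.18% of genes had a positive and 0.523% a negative difference past it, and 8 members had an unadjusted p under 0.05. Crot leaned to Ehhadh by 0.65 (adjusted p = 0.0672), Bdh1 by 0.51 (adjusted p = 0.138) and Acox2 to Acadm by 0.38 (a difference of −0.38, adjusted p = 0.0872), none past the threshold. No member passed by limma in the 46 livers, with 6 under an unadjusted p of 0.05, and the difference for Acaa1b was 0.45 (SE 0.15, adjusted p = 0.161). The result also turned on the genes chosen: with Hsd17b4 in place of Ehhadh 12 members leaned to the peroxisomal gene, 8 of them mitochondrial, against 8.59% of genes, and 2 (Cpt2 and Crat) did in the 46 livers, against 0.767%. With Hadha in place of Acadm 1 member, Fabp1, passed, with a difference of −0.92 (adjusted p = 0.0481), against 0.207% of genes with a negative difference. Over the 46 no member passed by limma in that comparison, with 4 under an unadjusted p of 0.05, and the difference for Fabp1 was −0.04 (adjusted p = 0.923).

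The steps of 1 pathway were also set against each other as pairs, 25 in all, of which 20 had a positive slope past the threshold. Leaving out pairs with Crot or Acaa2, which the mixture split into sets, 18 of them remained, with permutation p-values of r from 1e-05 to 0.00273. The permutation p-values of rho went up to 0.0302, except for Ehhadh and Acox2, with 0.275. In each pair r was computed again without the 2 mice most distant from the median of its first gene. Among the 25, Ehhadh and Acaa1b of the peroxisome had r of 0.776, rho of 0.751 and an adjusted p of 1.79e-08, and r was 0.733 without 2 mice, 0.809 in the 46 livers and 0.942, 0.496, 0.895 and 0.868 in the 4 stretches. Ehhadh and Hsd17b4 had r of 0.675, rho of 0.599 and an adjusted p of 9.32e-06, and r of 0.628 without 2 mice and 0.679 in the 46 livers. Crot has separate sets and gets no pooled r with Ehhadh: over the 42 livers of its upper set r was 0.478 (permutation p = 0.00133) and rho 0.539 (permutation p = 3.8e-04), with r of 0.572 without 2 mice, and over the 8 of its lower set r was −0.572 (exact permutation p = 0.128). Acaa1a and Acaa1b had r of 0.606 and rho of 0.543 (adjusted p = 4.49e-05), and r of 0.497 without 2 mice and also in the 46 livers (adjusted p = 0.0293). That pair did not pass in the 42 livers. Its probes may take up signal from each other, and the part of this in its r was not tested.

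In mitochondria the flavoprotein subunits Etfa and Etfb had r of 0.736, rho of 0.602 and an adjusted p of 5.93e-08, and r was 0.613 without 2 mice, 0.661 in the 46 livers and 0.959, 0.776, 0.856 and 0.610 in the stretches. The trifunctional subunits Hadha and Hadhb, neighbours in the genome, had a lower r of 0.628 and rho of 0.514 (adjusted p = 6.55e-05). The signal of Hadhb was low, with a median of 4.45 and a lowest value of 3.73, near the median level of 3.61 of the named genes. What this did to its spread and correlations was not tested. Their r was 0.549 without 2 mice and 0.563 in the 46 livers, and the pair did not pass in the 42. Acadm and Hadha had r of 0.573, and r was 0.791 with the 2 mice most distant in Acadm left out. In the stretch with animal 84 it was −0.139, against 0.904, 0.803 and 0.284 in the other stretches. Acadm with Etfdh (r 0.650), Cpt2 (r 0.550) and Decr1 (r 0.526) were low in that stretch as well, with r there of 0.0536, 0.0365 and −0.00256. Without those 2 mice their r was 0.816, 0.682 and 0.776, and in the 46 livers 0.775, 0.642 and 0.754. Over the 45 livers of the upper set of Acaa2, Acadm and Acaa2 had r of 0.622 (permutation p = 1e-05, the smallest possible), rho of 0.485 and r of 0.513 without 2 mice. Over all 50 livers their r was 0.439 and their rho 0.511.

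**Figure D4:**
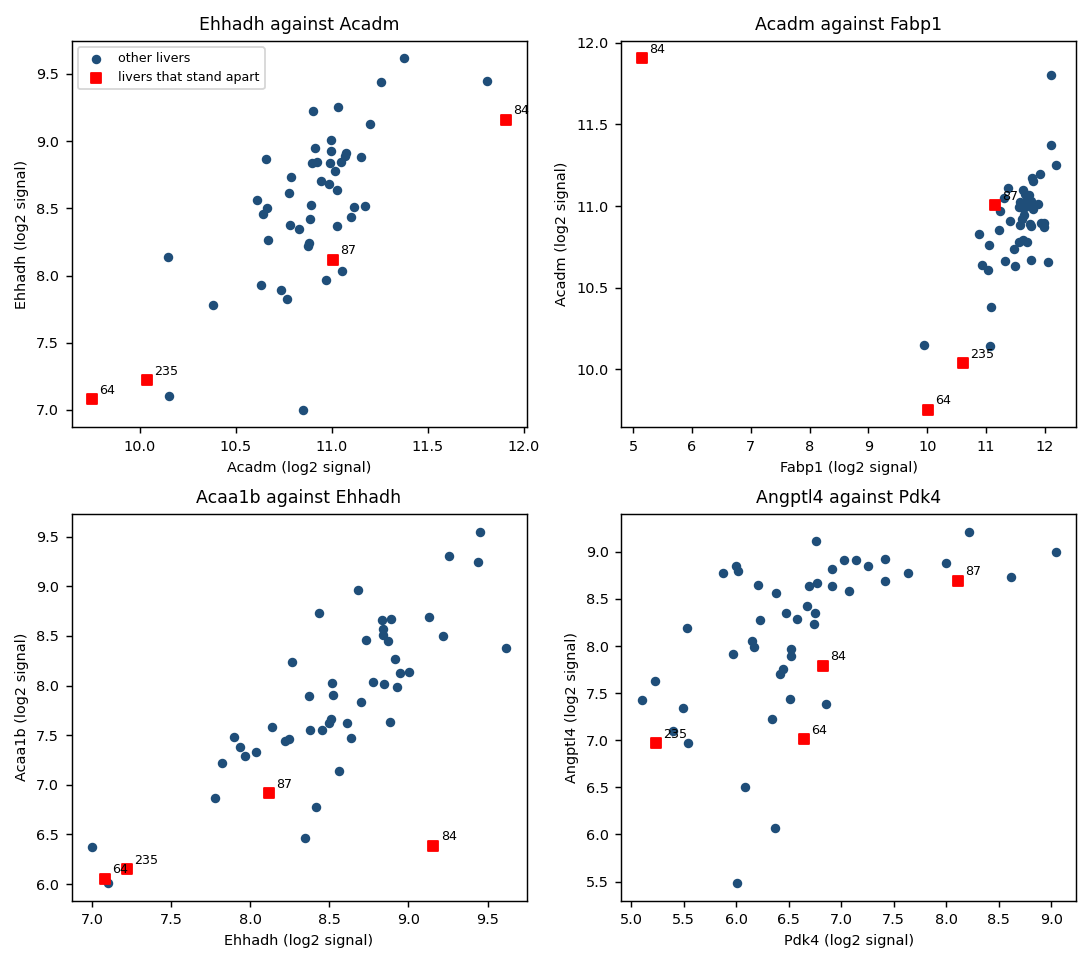
Log2 signals of 4 pairs of genes over the 50 livers, with the 4 livers that stand apart as numbered red squares. Acadm and Ehhadh rise together, as do Ehhadh and Acaa1b; Fabp1 and Acadm do so except in animal 84 at the top left, and Angptl4 is low in several livers with low or middling Pdk4.

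The enzymes of both compartments followed Ppara over 50 livers, and far fewer of them did over the 42. In the fit on Ppara all 17 mitochondrial and all 7 peroxisomal genes rose, against 23% of all genes, and 27 of the 29 others did in all. Cpt2 rose by 0.35 (SE 0.04) per SD of Ppara, Decr2 by 0.37 (SE 0.04), Acadvl by 0.28 (SE 0.03) and Acaa1b by 0.55 (SE 0.09). Crat and Pdk4 did not pass, with slopes of 0.04 and 0.26 (adjusted p = 0.63 and 0.0502). Of the 29, 22 passed in the 46 livers, against 8.61% of genes. In the 42 livers 7 did, against 3.43%. They were 3 of 17 mitochondrial genes (Bdh1, Cpt2 and Etfdh) and 4 of 7 peroxisomal ones (Acaa1b, Crot, Decr2 and Ehhadh). Acadm had a slope of 0.04 there (adjusted p = 0.588) and Ehhadh one of 0.24 (adjusted p = 0.0226). An unadjusted p under 0.05 by limma was reached by 14 of the 29. With the first component of the arrays, 77.8% of it from the 4 livers that stand apart, as a covariate 0 passed. Of the markers 5 of 8 hepatocyte genes and 1 endothelial gene rose with Ppara over 50 livers, and 4 of 6 macrophage, 2 stellate, 1 endothelial, 1 neutrophil and 1 adipocyte gene fell. Over the 46 no marker rose by limma, while both cholangiocyte and both B cell genes fitted, 1 stellate and 1 neutrophil gene fell. The share of all genes that fell with Ppara is not given for comparison, and the part of the markers in the relation to Ppara was not tested. Ppara had r of 0.658 and rho of 0.585 with Ehhadh (adjusted p = 1.17e-06), and 0.607 and 0.307 with Acadm (adjusted p = 1.73e-05). Without the 2 livers farthest from its median, animals 64 and 235, r was 0.527 with Ehhadh and 0.357 with Acadm.

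Fewer members passed the adjusted threshold with Cpt1a than with Ppara. In the fit on Cpt1a 17 of 29 rose, 9 of 16 mitochondrial and 6 of 7 peroxisomal ones among them, against 1.22% of all genes. With ranks in place of signals 0 passed. The threshold was stricter than for Ppara: Echs1 did not pass with an unadjusted limma p of 0.00172, while Fabp1 passed in the fit on Ppara with 0.00974. Decr2 rose by 0.27 (SE 0.05), Ehhadh by 0.37 (SE 0.07) and Crot by 0.36 (SE 0.07) per SD of Cpt1a, and among mitochondrial genes Acadl by 0.21 (SE 0.04) and Cpt2 by 0.23 (SE 0.05). The mean r of Cpt1a was 0.436 with the other mitochondrial genes and 0.539 with the peroxisomal ones, a difference that was not tested. In the 46 livers 10 passed, against 0.388% of genes, and in the 42 livers 2, Crot and Angptl4, against 0.0721%. An unadjusted p under 0.05 by limma was reached by 14 in the 42. No marker of any measured cell type passed in either of the larger sets of livers by limma. Cpt1a and Ppara had r of 0.482 and rho of 0.417 (adjusted p = 0.0317), and r of 0.555 without 2 mice and 0.416 in the 46 livers (adjusted p = 0.159).

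Pdk4 and Angptl4 varied together. In the fit on Pdk4, Angptl4 was the 1 member of 29 to pass, with a slope of 0.46 (SE 0.10), against 0.0451% of all genes with a positive call. Their r was 0.560 (permutation p = 4e-05), their rho 0.649 (permutation p = 1e-05) and their adjusted p 0.0356, and r was 0.554 without 2 mice. Their r within the stretches was 0.698, 0.623, 0.540 and 0.555. All 29 slopes on Pdk4 were positive, and 13 had an unadjusted p under 0.05. Crat and Eci2 passed too in the 46 livers, with slopes of 0.22 and 0.19 (adjusted p = 0.0466 and 0.0474), against 0.171% of genes. In the 42 livers none passed by limma, and 9 had an unadjusted p under 0.05. The slope of Angptl4 there was 0.41 (SE 0.10, adjusted p = 0.0667), close to that over 50 livers. Angptl4 itself was followed by 12 members, against 1.57% of genes, and by 7 in the 46 livers, against 0.685%. Cpt1a and Pdk4 had r of 0.199 and rho of 0.256 (adjusted p = 0.378), whereas Cpt1a and Angptl4 had r of 0.526 and rho of 0.456 (adjusted p = 0.0134), and r of 0.389 without 2 mice.

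Acox2, Crat and Fabp1 departed from the shared pattern, each in its own way. Acox2 was followed by 17 of 29 members over 50 livers, against 17% of all genes, and by none by limma in the 46, against 0.559%, where 4 had an unadjusted p under 0.05. Its mean r with the other members was 0.349 over 50 and 0.099 over 46 livers, and its r with Ehhadh 0.425 (adjusted p = 0.0116) and 0.045 (adjusted p = 0.896). Animal 84, the highest liver for Acox2 and for Acadm, and animal 64, the lowest for both, lay at the ends of its range. Crat went the other way: its mean r was 0.187 over 50 livers and 0.339 over 46, and it was followed by 1 and by 8 members, against 0.216% and 1.08% of genes.

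Fabp1 shows the weight of 1 liver. Over 50 livers its r with Acadm was −0.029 while rho was 0.486 (adjusted p of the linear fit 0.9), and animal 84 had the lowest Fabp1 and the highest Acadm. Without 2 mice r was 0.746, and in the 46 livers r was 0.678 and rho 0.542 (adjusted p = 2.44e-05). Within the stretches r was 0.870, −0.579, 0.823 and 0.471, the negative value in the stretch that holds animal 84. Fabp1 was followed by 21 members over 50 livers, against 9.62% of genes, and by 26 over 46, against 7.42%. Bdh1 and Acadm behaved alike, with r of 0.309 over 50 livers (adjusted p = 0.0576) and 0.559 over 46 (adjusted p = 0.00158).

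Seen from each member in turn, Cpt2 was followed by the most others, 29 of 29 over 50 livers, against 20.7% of genes, and by 28 over 46, against 10.1%. Acadl was followed by 28 over both sets, against 19.1% and 9.31% of genes, and so was Decr1, against 17.1% and 8.91%. Hsd17b4 was followed by 27 and 28, against 22.6% and 13.3%. Counted past the adjusted threshold, Acaa1a and Crot lost the most besides Acox2. Acaa1a had 25 followers over 50 livers, against 16.6% of genes, and 12 over 46, against 1.01%. At an unadjusted p under 0.05 by limma its counts were 25 and 21, a smaller loss. Crot had 24 and 12 past the adjusted threshold, against 14.3% and 2.16%. Hadhb had 16 and 11, against 3.16% and 1.11%. The members followed by most others thus included a shuttle enzyme, dehydrogenase and reductase of mitochondria and a bifunctional enzyme of peroxisomes.

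Of 66 further genes of the pathway 56 were measured and 51 lay at or above the median level. With Acadm 30 of the 51 rose and none fell, against 15.8% of all genes that rose, and with Ehhadh 35 rose and none fell, against 14.8%. Acot12, a cytosolic acetyl-CoA hydrolase, rose with Acadm by 0.38 (SE 0.03, r 0.849), and Acad11, a dehydrogenase of long chains, by 0.34 (SE 0.04, r 0.742). Slc27a2, which activates very long chains, rose by 0.31 with Acadm (SE 0.04), by 0.31 with Ehhadh (SE 0.04) and by 0.30 with Cpt1a (SE 0.04), with r of 0.784, 0.783 and 0.773. Abcd3, a peroxisomal membrane transporter of acyl-CoA, rose with Ehhadh by 0.36 (SE 0.04, r 0.758). With Ppara 40 rose, against 23% of all genes, and 1, the acyl-CoA synthetase Acsl4, fell, by 0.14 per SD (adjusted p = 0.0413). No share of all genes that fell is given beside it. With Cpt1a 13 rose and none fell, against 1.22% of all genes that rose, and with Pdk4 none passed by limma, with 16 under an unadjusted p of 0.05. In the 46 livers 31 rose with Acadm, 32 with Ehhadh, 30 with Ppara, 7 with Cpt1a and 2 with Pdk4, against 10.9%, 7.24%, 8.61%, 0.388% and 0.171% of all genes, and Acsl4 fell with Ehhadh and with Ppara. Plin2, which coats lipid droplets, and Acsl5, another synthetase, leaned to Ehhadh over Acadm by 0.65 and 0.67 (adjusted p = 0.0167 and 0.021), but not past the threshold in the 46 livers. Cyp4a14, a fatty acid hydroxylase known as a PPAR-alpha target, had r of 0.226 with Ehhadh (adjusted p = 0.215).

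Outside these lists, the genes most like Acadm by the t of the fit over 50 livers were Aadat, Sugct, Mccc1, Cryz and Mettl7a1, with r of 0.829, 0.826, 0.832, 0.831 and 0.811. Their r over the 46 was 0.681, 0.707, 0.695, 0.682 and 0.668. Those most like Ehhadh were Mme, Rdh16, Vwa8, Ephx2 and Rida, with r of 0.807, 0.779, 0.781, 0.767 and 0.769 over 50 livers and 0.757, 0.699, 0.769, 0.773 and 0.729 over 46.

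The animal number, the only number the labels give for a mouse, was related to no member over 50 livers by limma. It passed for 3.29% of genes with a positive and 6.01% with a negative slope, and 2 of 30 members had an unadjusted p under 0.05. In the 46 livers Acaa2 rose by 0.11 per 100 numbers (adjusted p = 0.0382) and Crat fell by 0.20 (adjusted p = 0.0391), against 5.0% and 8.13% of genes. In the 42 livers 4 of 30 members fell, Cpt2, Eci1, Crat and Ppara, by 0.17, 0.15, 0.23 and 0.20, against 10.2% of genes.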

How the data were processed

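The authors deposited log2 signals made by RMA, which per the submitters' processing notes was run in Affymetrix Expression Console 1.4.1, from 100 ng of total RNA per array, per the labels' protocols. RMA sets all arrays to the same distribution, so differences in total RNA are removed, and levels of different probe sets were not compared. The labels name the tissue as liver, while the protocol of extraction mentions purified cells; the genome build is not given in the sources used here. Of 41345 probe sets, 23521 carried 1 symbol, 1814 several and 16010 none in the platform annotation. Where a gene had several, that of highest median stood for it, which gave 22180 genes. Neighbouring genes were looked up in a RefSeq table.

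The 11090 genes at or above the median level were fitted with limma 3.58.1 in R 4.3.3 (lmFit, eBayes with trend, Benjamini-Hochberg over all genes, threshold 0.05) on the standardised signal of 1 member, which was itself left out. The fit was tested on simulated data. Named pairs got Pearson's r and Spearman's rho with 100000 two-sided permutations (scipy 1.17.1). Separate sets were sought with a normal mixture. Livers stand apart when their median correlation is under the lower quartile by over 3 interquartile ranges. The members, lists, pairs and stretches of animal numbers were chosen with earlier results of these data known. The named genes were all members, up to 6 further pathway genes per fit by absolute t, and the 5 most like Acadm and Ehhadh. Cyp4a14 belongs to a named pair, and Alb, Tat, Tdo2, Hnf4a and Ttr to the markers. Acsl4 was named because it fell, not by its t. Alternatives covered the level filter, the probe sets, array centring, ranks, the stretches as a block, the first array component, other genes to fit on, and livers left out. No sequence is shown, since none was used here.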

Additional observations from a re-analysis of the deposited data

How the results depend on the processing

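No paired analysis was possible because all livers form 1 group. Counts of members kept their direction and stayed within 1.5 times under array centring, mean probe sets, ranks, no level filter and the block of stretches, except as follows. Of the 16 other mitochondrial genes 14 rose with Acadm, but 5 with the first array component as a covariate and 9 in the 42 livers; of 6 other peroxisomal genes 6 rose with Ehhadh, but 2 with that component. The component holds 25.8% of the variance, 77.8% of it from the 4 livers that stand apart. With it 0 members followed Ppara, 2 followed Cpt1a, 3 followed Pdk4, 3 were related to the animal number, 5 differed between Ehhadh and Acadm, and 6 named pairs passed. The single difference between Ehhadh and Acadm was 0 without the level filter, with centred arrays, ranks, the block of stretches, in the 46 and in the 42 livers, and 12 with Hsd17b4 in place of Ehhadh. The 17 followers of Cpt1a were 10 without the level filter and in the 46 livers, 2 in the 42 and 0 by ranks. The 27 followers of Ppara were 7 in the 42 livers. The 1 follower of Pdk4 was 3 in the 46 livers, 0 in the 42 and 0 with the block. Members related to the animal number were 2 by ranks and in the 46 livers and 4 in the 42. Of the 25 pairs 13 passed in the 42 livers. The slope of Acadm on Fabp1 was −0.01 over 50 livers and turned to 0.19 in the 46 and 0.11 in the 42. Of the 20 pairs that passed, 14 no longer did with the first component, 8 in the 42 livers and 3 in the 46, where 19 of all 25 passed. Where no value above shows it, the cause was not tested.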
